A study of Mus musculus with 15 samples.

Results

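The genes described here belong by name to signalling by the cyclic nucleotides cAMP and cGMP, which most of them make, break down or respond to. They were taken by name from the gene table: symbols starting with Adcy or Pde and a digit, Prkaca, Prkacb, Prkar, Prkg, Gucy1, Gucy2, Rapgef, Creb1, Creb3, Crem, Atf1 or Crtc, with a mean of at least 1 CPM (the usual unit of counts scaled to the library total) over the 15 libraries. Of 24419 genes in the table, 71 had such a name and 59 of these passed the level. The nearest genes below it were Creb3l4 at 0.666 CPM, Adcy10 at 0.563 CPM and Creb3l3 at 0.494 CPM, and the nearest above it were Pde5a at 2.64 CPM, Pde3a at 2.65 CPM and Pde4c at 2.75 CPM. Neither genotype nor time entered this rule. By name it also took in Pde4dip and Pde12, which are not cyclic nucleotide phosphodiesterases and are counted among the 59.

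RNA came from punches of the suprachiasmatic nuclei (SCN), the hypothalamic pacemaker of mammals, at circadian time (CT) 4 h, in the subjective day, or 16 h, in the subjective night. The mice had the genotype REV-ERBS DKO, a double knockout of the nuclear receptors REV-ERB alpha and REV-ERB beta, or were controls. At CT4, 3 libraries were controls and 3 were DKO; at CT16, 5 were controls and 4 were DKO. All came from mice on the C57BL/6 background aged 8 to 12 weeks, and each library pooled 2 to 4 punches. The way the receptors were deleted, any Cre driver, and the controls' alleles are not stated in the labels. Which mice shared a pool is not given either, and p-values therefore reflect only how far pools differ.

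Adenylyl cyclases make cAMP from ATP and guanylyl cyclases make cGMP from GTP, the soluble ones in response to nitric oxide. Phosphodiesterases (PDEs) break both down, with some families selective for cAMP, some for cGMP and some accepting either. cAMP acts through protein kinase A (PKA) and the Epac exchange factors, cGMP acts through the cGMP-dependent kinases, and PKA signalling reaches transcription through CREB and its CRTC coactivators. In SCN neurons, cAMP is known to help sustain cellular rhythms and to carry signals of the neuropeptide VIP between cells, and cGMP is known for its part in shifting the clock by light at night.

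Total counts ran from 32580803 to 68757624 per library, and the 59 genes together took 0.634% to 0.701% of them. All 59 were among the 16910 genes tested. The messages of the targeted genes did not fall: Nr1d1 and Nr1d2 were at 241 to 378 CPM and 198 to 259 CPM in DKO at CT16, against 135 to 150.3 CPM and 96.7 to 118 CPM in control, so gene-level counts did not check the genotype labels. SCN markers were detected in all libraries, with a summed level of 685 to 1500 CPM over 15 genes that include Vip and Avp. Libraries differed in the tissue around the SCN: summed myelin markers (12 genes) ran from 2967 to 20073 CPM and summed markers of neighbouring hypothalamic nuclei (20 genes) from 564 to 1271 CPM. At CT4 the genotypes did not overlap in either neuronal sum, with SCN markers at 1238 to 1335 CPM in control and 1015 to 1065 CPM in DKO, and those of neighbouring nuclei at 572 to 1020.3 CPM and 1069.9 to 1155 CPM. The control libraries differed more in single SCN genes than in their sum. Avp was at 681, 72.3 and 235 CPM in control replicates 1, 2 and 3 at CT4. Vipr2 was at 46.8, 136 and 86.8 CPM there, against 22.1 to 34.2 CPM in DKO. Vascular markers (233 to 255 CPM in control and 215 to 221 CPM in DKO) and ependymal markers (103 to 130 CPM and 136 to 173 CPM) did not overlap between genotypes at CT4 either, while sums for striatal neurons, myelin, astrocytes and microglia did overlap there. In bulk tissue, fewer cells of a type and less RNA per cell cannot be told apart. The libraries control CT4 replicate 1, DKO CT16 replicate 3 and DKO CT16 replicate 4 stood apart from their groups in these sums, and the counts of called members are also given without these 3. Other libraries stood apart too and were kept. Control CT16 replicate 2 had the highest sums of its group for SCN (1308 CPM), myelin (9761 CPM) and astrocytes (5048 CPM, against 4124 to 4287 CPM). Ependymal markers summed to 199 CPM in control CT16 replicate 5, against 101 to 126 CPM in the rest of its group.

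The most abundant members were PKA subunits, though not all of these. On a scale of CPM per kilobase of exon, which allows levels of different genes to be compared, the regulatory subunits Prkar1a and Prkar1b were at 285 and 280.2 and the catalytic subunits Prkacb and Prkaca at 163 and 107, as means over the 15 libraries. The remaining regulatory subunits, Prkar2a and Prkar2b, were lower, at 28.5 and 16.3. Pde2a, a PDE that breaks down both nucleotides and is stimulated by cGMP, was the highest PDE at 73.9 on the same scale. The highest adenylyl cyclase was Adcy5 at 46.1, followed by Adcy2 at 38.9, and Gucy1b3, the beta subunit of soluble guanylyl cyclase, stood at 32.8. At the low end were Pde5a at 0.392, the membrane guanylyl cyclase Gucy2f at 0.469, Pde3a at 0.629 and Pde4c at 0.864. The median member was at 12.5, against 7.28 for all tested genes. Within groups, the log2 level of the median member varied with a standard deviation (SD) of 0.129, against 0.142 for all tested genes. The widest spreads were those of Pde8a (0.51), Pde11a (0.49), Creb3l1 (0.43) and Pde1c (0.40), and the narrowest were under 0.1, as for Prkar1a at 0.05.

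**Figure D1:**
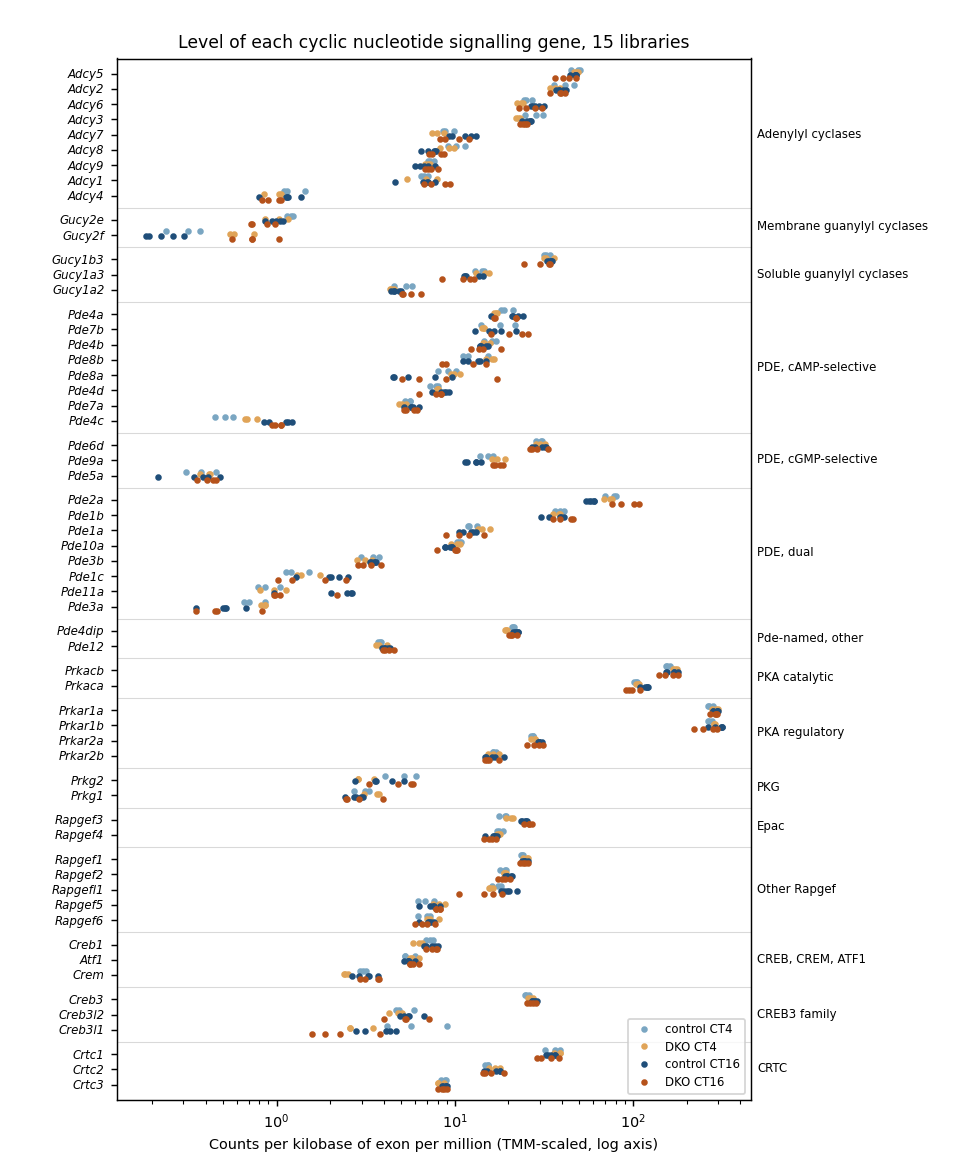
Level of each of the 59 genes in every library, on a log axis of CPM per kilobase of exon. Points are libraries coloured by group and rows are ordered by role and level; Prkar1a and Prkar1b lie highest, at a mean of 285 and 280.2, and Pde5a and Gucy2f lowest, at 0.392 and 0.469.

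The first comparison asked how the absence of REV-ERBs changed these genes in the subjective day. At CT4, Gucy2f was the only member that rose and Adcy3 the only one that fell, of 59. Called changes are those with a Benjamini-Hochberg adjusted p under 0.05 over all 16910 genes, from edgeR's quasi-likelihood test. By this rule 3.39% of the members changed, against 1.28% of all tested genes (0.574% higher and 0.71% lower). The median log2 fold change of the members was 0.01, against -0.00 for all tested genes. For 55 of 59 members the 95% confidence interval of the log2 fold change lay within 1 of 0, and for 43 within 0.5. The groups did not overlap in 16 of 59 members (27.1%), against 25.4% of all tested genes, and 22% of the members had an unadjusted p under 0.05, against 14.8% of all.

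Gucy2f encodes a membrane guanylyl cyclase best known from photoreceptors, and lies on the X chromosome (chrX:142079289-142196936, mm10, minus strand); the sex of the pooled mice is not stated in the labels. Its level at CT4 was 3.70, 2.38 and 3.19 CPM in the control libraries and 5.79, 7.51 and 5.48 CPM in the DKO libraries. All DKO libraries were above all control libraries. The log2 fold change was 1.02 ± 0.24 (standard error, SE; adjusted p = 0.047 by edgeR), a 2.03-fold difference. The gene rested on 62 to 437 counts per library. Its membrane relative Gucy2e differed in the other direction by -0.23 without being called.

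The sequence upstream of Gucy2f is shown because the gene had, at CT16, the largest fold change between genotypes of the 59 and because its RefSeq promoter window was the only one among theirs with a match to the ROR/REV-ERB response element (RORE), the element that REV-ERBs bind. The 250 bases before the start (GRCm38.p6, chrX:142196937-142197186, minus strand, read 5′ to 3′) have the match in capitals, 128 to 119 bases before the start. The match includes the nuclear receptor core AGGTCA.
Gucy2f: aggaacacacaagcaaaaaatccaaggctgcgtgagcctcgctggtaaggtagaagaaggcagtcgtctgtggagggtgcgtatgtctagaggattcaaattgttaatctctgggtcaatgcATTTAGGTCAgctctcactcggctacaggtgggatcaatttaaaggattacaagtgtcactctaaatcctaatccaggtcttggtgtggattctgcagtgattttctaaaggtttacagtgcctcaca
A RORE match was found in 1.53% of 32851 RefSeq windows of 300 bases (250 before to 50 after a start, both strands searched). A match is a description of the letters and not a measured binding site.

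Adcy3, an adenylyl cyclase known from primary cilia and olfactory neurons (chr12:4133397-4213524, plus strand), was at 117, 147 and 136 CPM in control and 104, 107 and 109.7 CPM in DKO at CT4. The groups did not overlap, and the log2 fold change was -0.32 ± 0.07 (SE; adjusted p = 0.0386 by edgeR). Of its 4730 exonic bases, 1045 (22.1%) lie over exons of Cenpo on the opposite strand, and the strand setting of the counting is not stated in the labels, so reads of the pair cannot be told apart in that stretch; Cenpo averaged 5.10 CPM. The other adenylyl cyclases were not called. All 9 had a log2 fold change below 0 at CT4, with a median of -0.16.

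Both calls at CT4 lay close to the threshold. They were lost when control CT4 replicate 2 or 3, any of the 3 DKO CT4 libraries, control CT16 replicate 1, 3 or 4, or DKO CT16 replicate 2 was left out, and for Gucy2f also without DKO CT16 replicate 1, with adjusted p of 0.0501 to 0.208 for Adcy3 and 0.0518 to 0.219 for Gucy2f. Without the 3 libraries that stood apart, 606 of all tested genes were called at CT4, against 217 with all libraries. Of the members 5 were called there: Adcy3 at -0.41 (adjusted p = 0.00211 by edgeR), Gucy2f at 1.17 (adjusted p = 0.0113), and Adcy2, Creb3l1 and Gucy1a2, all 3 lower in DKO. The CT4 library among these 3, control replicate 1, had the control sum for neighbouring nuclei nearest to DKO (1020.3 CPM). Without it the control sums were 572 and 721 CPM, against 1069.9 to 1155 CPM in DKO, so this exclusion widened that gap. The part of the SCN, neighbouring, vascular and ependymal markers in these differences was not tested.

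The transcription factors included the members with the smallest p-values that were not called at CT4. Creb3l1, a CREB3-family factor that is released from the endoplasmic reticulum membrane, was at 9.43, 12.9 and 20.5 CPM in control and 5.87, 5.87 and 7.86 CPM in DKO. The groups did not overlap, and the log2 fold change was -1.12 ± 0.33 (adjusted p = 0.129 by edgeR). Creb1, which encodes CREB itself, was at 58.4, 61.4 and 63.5 CPM in control and 54.9, 49.2 and 53.0 CPM in DKO (log2 fold change -0.22 ± 0.07, adjusted p = 0.163). Prkg2, which encodes the membrane-bound cGMP-dependent kinase II, was at 19.0, 28.6 and 24.5 CPM in control and 16.5, 13.4 and 13.4 CPM in DKO, again without overlap (-0.74 ± 0.24, adjusted p = 0.177).

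The second comparison put the same question in the subjective night. At CT16, Gucy2f, Pde2a and Pde9a rose in DKO and Prkaca fell. Pde2a was the only one called of 8 PDEs that accept both nucleotides, with a median of -0.01, and Pde9a the only one of 3 genes of the cGMP-selective list. The 4 calls were 6.78% of the 59 members, against 4.66% of all tested genes (2.83% higher and 1.83% lower). The median log2 fold change was -0.04 for the members and 0.00 for all tested genes. Groups did not overlap in 4 members (6.78%, against 6.97% of all tested genes), namely Gucy2f, Pde2a, Pde9a and Gucy1a2. An unadjusted p under 0.05 was seen for 18.6% of members and 20% of all tested genes. The 95% confidence interval lay within 1 of 0 for 55 members and within 0.5 for 44.

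Gucy2f was at 1.92, 1.85, 2.24, 2.62 and 3.01 CPM in the control libraries and at 7.31, 7.29, 5.65 and 10.3 CPM in the DKO libraries at CT16. The lowest DKO library was above the highest control library. The log2 fold change was 1.71 ± 0.19 (adjusted p = 5.75e-05 by edgeR), or 3.26-fold.

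Pde2a (chr7:101421691-101512829, plus strand) was at 280.2, 279, 262, 269 and 251 CPM in control and at 398, 499, 352 and 471 CPM in DKO at CT16. The groups did not overlap, and the DKO libraries spread more widely (SD 67.2 CPM, n = 4) than the controls (SD 12.0 CPM, n = 5). The log2 fold change was 0.68 ± 0.08 (adjusted p = 0.000127 by edgeR), or 1.60-fold. At CT4 the same gene was at 324, 373 and 361 CPM in control and 319.9, 346 and 355 CPM in DKO, where the groups overlapped and the log2 fold change was -0.05 with a 95% interval of -0.26 to 0.16.

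Pde9a encodes a PDE with high affinity and selectivity for cGMP (chr17:31386234-31476309, plus strand). At CT16 it was at 27.1, 24.0, 27.3, 23.5 and 28.9 CPM in control and 38.3, 34.5, 34.0 and 36.9 CPM in DKO, without overlap. The log2 fold change was 0.46 ± 0.07 (adjusted p = 0.00137 by edgeR). At CT4 it was 0.21 ± 0.09 (adjusted p = 0.286), with control libraries at 33.8, 31.5 and 28.5 CPM and DKO libraries at 33.2, 39.6 and 35.8 CPM. The other cGMP-selective PDE, Pde5a, did not differ beyond its spread at CT16 (0.17, 95% interval -0.24 to 0.58), nor did Pde6d, a binding partner of prenylated proteins with no catalytic activity (-0.06).

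Prkaca, a catalytic subunit of PKA (chr8:83972978-83996442, plus strand), was at 291, 272, 299.9, 300.4 and 305 CPM in control and at 274, 238, 246 and 229 CPM in DKO at CT16. The ranges overlapped by 1 library each, control replicate 2 and DKO replicate 1. The log2 fold change was -0.25 ± 0.05 (adjusted p = 0.00802 by edgeR), the smallest of the 4 in size. The other catalytic subunit, Prkacb, was at -0.06 (95% interval -0.19 to 0.08). All 4 regulatory subunits had log2 fold changes below 0 at CT16, from -0.20 for Prkar1b to -0.02 for Prkar1a, and none was called. At CT4, Prkaca was at 253, 260.1 and 263 CPM in control and 259.9, 268 and 270.0 CPM in DKO (log2 fold change 0.04 ± 0.06).

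The bases upstream of Prkaca are shown because it was the member of the PKA core that was called, and because they hold matches both to the E-box bound by CLOCK and BMAL1 and to the core of the cAMP response element. The sequence is chr8:83972728-83972977 (GRCm38.p6, plus strand, 5′ to 3′), from 1 of 2 RefSeq windows of the gene. Capitals mark the E-box CACGTG, 185 to 180 bases before the start, and CGTCA, the core TGACG on the other strand, at 120 to 116 and 6 to 2 bases before the start.
Prkaca: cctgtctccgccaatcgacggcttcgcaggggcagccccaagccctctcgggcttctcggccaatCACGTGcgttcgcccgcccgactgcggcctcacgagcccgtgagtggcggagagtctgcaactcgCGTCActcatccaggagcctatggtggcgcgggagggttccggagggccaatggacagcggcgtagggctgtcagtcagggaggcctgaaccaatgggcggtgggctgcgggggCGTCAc
An E-box of these letters was found in 7.15% of all windows and in 7.69% of the 91 windows of the members, and TGACG on either strand in 20.8% and 24.2%.

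**Figure D2:**
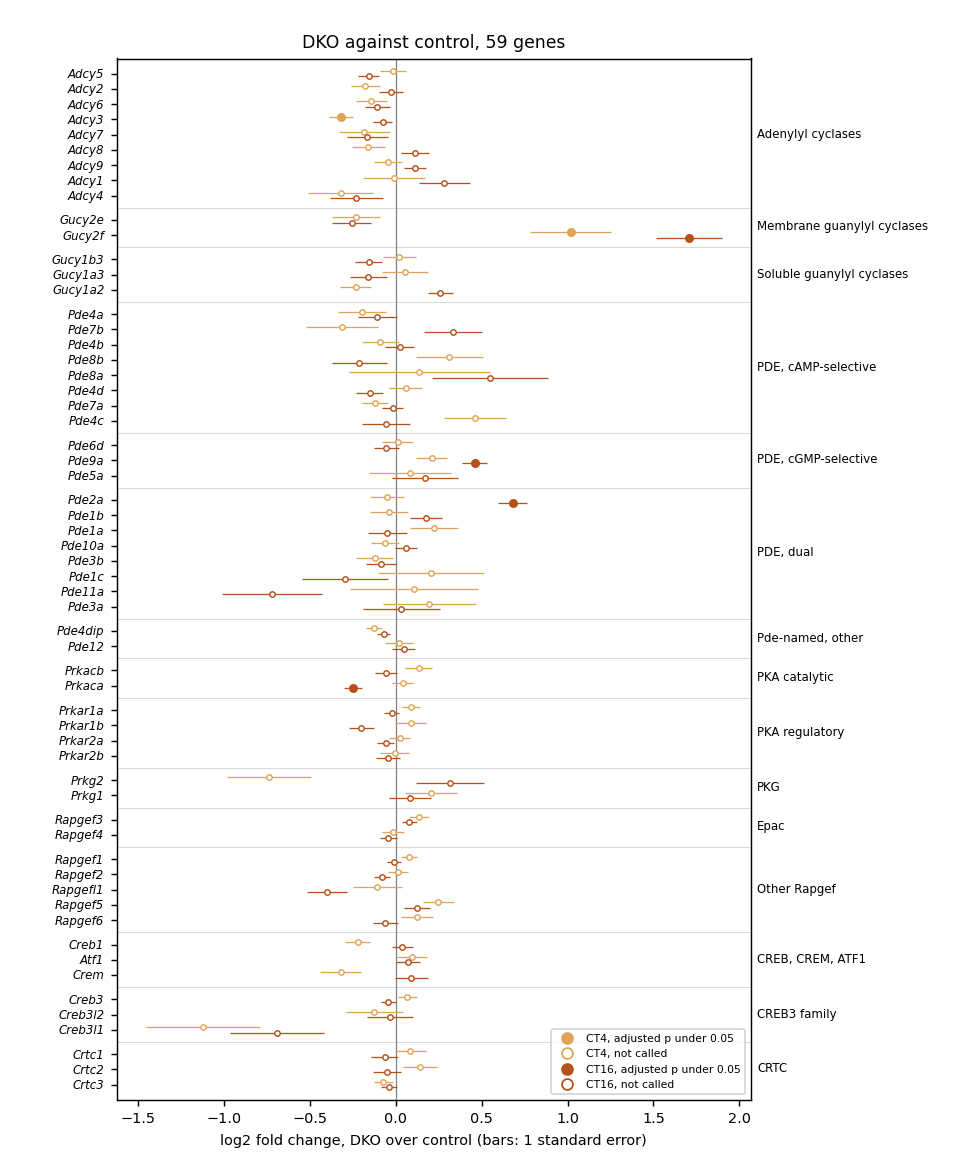
Log2 fold change of DKO over control for the 59 genes at CT4 (light orange) and CT16 (dark orange), with bars of 1 standard error; filled points have an adjusted p under 0.05. Gucy2f lies farthest to the right at both times, at 1.02 and 1.71, and most other points lie near 0.

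The calls of Gucy2f, Pde2a and Pde9a at CT16 were kept under all 22 other settings and exclusions tried. Prkaca kept its direction but was not called when only the CT16 libraries were fitted (adjusted p = 0.0578 by edgeR) or without the 3 libraries that stood apart (-0.20, adjusted p = 0.104); the latter exclusion gave 4 called members, with Gucy1a2 in place of Prkaca. Without DKO CT16 replicate 1 there were 7, the added ones being Pde11a, Prkar1b and Rapgefl1. All tested genes called rose there from 788 to 1318. At CT16, neighbouring nuclei markers summed to 907 to 1271 CPM in control and 564 to 1023 CPM in DKO, and SCN markers to 685 to 1308 CPM and 943 to 1500 CPM. Single genes of the SCN sum differed in this. Rgs16 was at 45.2 to 62.9 CPM in control and 119 to 437 CPM in DKO, while Vipr2 overlapped at 31.3 to 95.8 CPM and 25.0 to 83.3 CPM. The part of these markers in the genotype differences was not tested.

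Among members without a call at CT16, Gucy1a2, an alpha subunit of soluble guanylyl cyclase, was at 66.5, 62.6, 68.6, 60.5 and 62.9 CPM in control and 88.5, 78.4, 69.7 and 70.6 CPM in DKO. The groups did not overlap (log2 fold change 0.26 ± 0.07, adjusted p = 0.0556 by edgeR). The other soluble subunits, Gucy1a3 and Gucy1b3, both stood at -0.16 (adjusted p = 0.44 and 0.266). Rapgefl1, a Rapgef relative named here for its p-value after the values were seen, was at -0.40 ± 0.12 (adjusted p = 0.0692). None of the 9 adenylyl cyclases was called, and their log2 fold changes ran from -0.23 for Adcy4 to 0.28 for Adcy1. The 8 cAMP-selective PDEs (PDE4, PDE7 and PDE8 families) had no call, and a median of -0.04. CREB-family and CRTC genes stayed between -0.07 and 0.09, apart from Creb3l1 at -0.69 (adjusted p = 0.177).

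Several members at the centre of the pathway or at the ends of their class in level had no call in any of the 5 comparisons. Prkar2b, a regulatory subunit of PKA, differed by -0.01 at CT4 and -0.05 at CT16 between genotypes. Prkg1, which encodes the cGMP-dependent kinase I, was at 0.20 ± 0.15 and 0.08 ± 0.12, and Crtc1, a CREB coactivator, at 0.09 ± 0.09 and -0.07 ± 0.08. Crtc3, Rapgef1 and Rapgef6 had differences between -0.07 and 0.12 at both times. Among enzymes, Adcy2 was at -0.18 and -0.03, Adcy5 at -0.02 and -0.16, Pde4b at -0.09 and 0.02, Pde4d at 0.06 and -0.15, and Pde10a at -0.06 and 0.06.

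**Figure D3:**
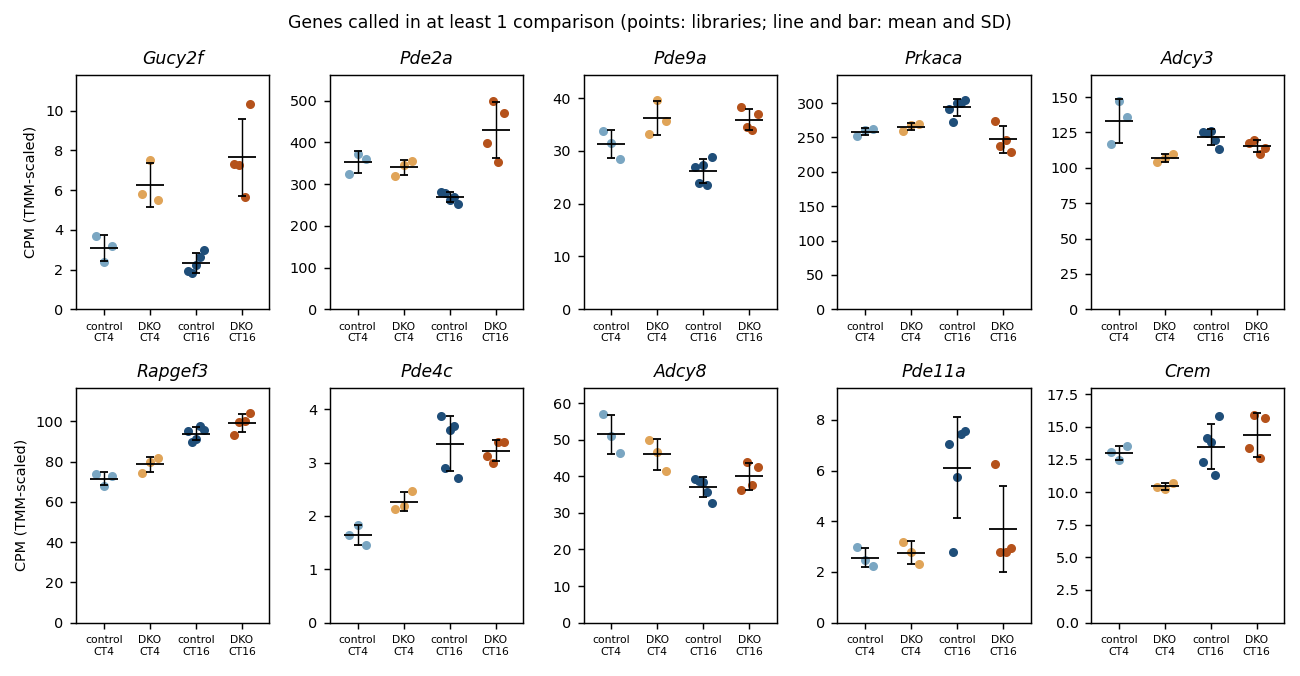
Level in CPM of the 10 genes called in at least 1 comparison, with 1 panel per gene and linear axes from 0. Points are libraries and black marks give mean and SD by group; at CT16 the DKO libraries of Gucy2f (5.65 to 10.3 CPM) and Pde2a (352 to 499 CPM) lie above all controls (1.85 to 3.01 and 251 to 280.2 CPM).

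Time of day was compared next, within each genotype. In control SCN, Rapgef3, Pde4c and Pde11a were higher at CT16 than at CT4, and Adcy8 and Pde2a were lower. These 5 of 59 members (8.47%) compare with 4.21% of all tested genes (2.13% higher and 2.08% lower). The median log2 fold change of CT16 over CT4 was 0.01 for the members and -0.01 for all tested genes. Groups did not overlap in 11 members (18.6%, against 15.8% of all tested genes), and 27.1% had an unadjusted p under 0.05 (19.9% of all). The control libraries enter both this comparison and those between genotypes. Tissue markers also differed between the times in control: microglial sums were 374 to 454 CPM at CT4 and 312 to 363 CPM at CT16, and vascular sums 233 to 255 CPM and 185 to 221 CPM, without overlap. Of 10 microglial markers 2 were lower, and of 12 vascular markers 3 were lower and 1 higher. Of 15 SCN markers 3 were lower and 1 higher, with sums of 1238 to 1335 CPM and 685 to 1308 CPM. Their part in the differences between times was not tested.

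Rapgef3 encodes Epac1, an exchange factor for Rap GTPases that is activated by cAMP directly (chr15:97744770-97767666, minus strand). It was at 74.1, 67.9 and 72.9 CPM in control at CT4 and at 95.4, 89.7, 91.2, 97.6 and 96.0 CPM at CT16. The times were well apart, with a log2 fold change of 0.39 ± 0.05 (adjusted p = 0.000498 by edgeR). In DKO it was at 74.5, 79.7 and 81.7 CPM at CT4 and 93.2, 99.6, 100.1 and 104 CPM at CT16, a log2 fold change of 0.34 ± 0.05 (adjusted p = 0.00326). The time difference of Rapgef3 did not differ detectably between genotypes (interaction -0.05, 95% interval -0.21 to 0.10). Its relative Rapgef4, which encodes Epac2, differed by -0.12 ± 0.06 in control (adjusted p = 0.236) and -0.15 ± 0.06 in DKO (adjusted p = 0.195).

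The bases upstream of Rapgef3 are shown because this was the only member called between times in both genotypes. The sequence is chr15:97767667-97767916 (GRCm38.p6, minus strand, 5′ to 3′), and capitals mark TGACG, the core of the cAMP response element, 191 to 187 bases before the start.
Rapgef3: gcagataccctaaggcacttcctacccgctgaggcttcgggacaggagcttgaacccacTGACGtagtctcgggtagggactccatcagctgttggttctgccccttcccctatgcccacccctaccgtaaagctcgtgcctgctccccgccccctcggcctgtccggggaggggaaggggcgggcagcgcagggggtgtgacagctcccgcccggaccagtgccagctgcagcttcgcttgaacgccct
No E-box CACGTG, RORE or D-box (TTATGTAA) letters were found in its window.

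Pde4c, a cAMP-selective PDE of low level here (chr8:70724064-70751176, plus strand, 50 to 235 counts per library), was at 1.64, 1.83 and 1.45 CPM in control at CT4 and at 3.88, 2.91, 3.61, 3.68 and 2.70 CPM at CT16. The times did not overlap, and the log2 fold change was 1.02 ± 0.16 (adjusted p = 0.00233 by edgeR), or 2.03-fold. In DKO it was at 2.13, 2.19 and 2.47 CPM at CT4 and 3.11, 3.0, 3.39 and 3.38 CPM at CT16, also without overlap (0.51 ± 0.16, adjusted p = 0.12). The other PDE4 genes, Pde4a, Pde4b and Pde4d, had no call in any comparison.

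Adcy8, an adenylyl cyclase stimulated by calcium and calmodulin (chr15:64699035-64922296, minus strand), was at 57.2, 51.0 and 46.3 CPM in control at CT4 and at 39.4, 38.8, 38.6, 35.8 and 32.7 CPM at CT16. All CT16 libraries lay below all CT4 libraries, with a log2 fold change of -0.48 ± 0.09 (adjusted p = 0.00559 by edgeR). In DKO it was at 49.9, 46.8 and 41.5 CPM and then 36.2, 43.9, 37.7 and 42.4 CPM, where the times overlapped (-0.20 ± 0.09, adjusted p = 0.24). Adcy1, another calcium-stimulated cyclase, was at -0.04 in control and 0.26 in DKO, with no call.

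Pde2a was lower at CT16 in control by -0.39 ± 0.09 (adjusted p = 0.0215 by edgeR), with all CT16 control libraries below all CT4 control libraries at the levels given above. Pde11a, a PDE that accepts both nucleotides (chr2:75991132-76338653, minus strand), was at 2.97, 2.47 and 2.23 CPM at CT4 and at 7.04, 2.77, 5.76, 7.46 and 7.55 CPM at CT16 in control. Control CT16 replicate 2 lay in the range of the CT4 libraries and the other 4 above it, and the log2 fold change was 1.25 ± 0.34 (adjusted p = 0.0491). In DKO, replicate 1 at CT16 was at 6.26 CPM and the other 3 at 2.77 to 2.96 CPM, against 2.29 to 3.20 CPM at CT4.

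The calls of Rapgef3, Pde4c and Adcy8 in control were kept under all 22 alternatives. That of Pde2a was lost without control CT4 replicate 2 (adjusted p = 0.112 by edgeR) or 3 (0.0872) and without control CT16 replicate 3 (0.0512) or 5 (0.0502), exclusions that left 3 called members each. The call of Pde11a was lost without any 1 of the 6 CT4 libraries, without control CT16 replicate 1, 3, 4 or 5, or without DKO CT16 replicate 2, with adjusted p of 0.0566 to 0.168, and with no filter on low counts (0.061). Without the 3 libraries that stood apart, 7 members were called in control, 2 higher and 5 lower, and Pde11a was not among them (adjusted p = 0.0983). All tested genes called there numbered 609, against 712 with all libraries.

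In DKO SCN, Rapgef3 and Crem were higher at CT16 and no member was lower. These 2 of 59 (3.39%) compare with 1.8% of all tested genes (1.29% higher and 0.509% lower). The median log2 fold change was -0.01 for the members and 0.01 for all tested genes. The times did not overlap in 11 members (18.6%, against 14.7% of all tested genes), and 35.6% had an unadjusted p under 0.05 (18.6% of all). In DKO, sums for neighbouring nuclei were 1069.9 to 1155 CPM at CT4 and 564 to 1023 CPM at CT16, without overlap, and SCN markers had a median log2 fold change of 0.79, though none of either list was called. Their part in these differences was not tested.

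Crem encodes CREM and, from an internal promoter, the repressor ICER, which gene-level counts do not tell apart. It was at 10.4, 10.2 and 10.7 CPM in DKO at CT4 and at 13.4, 15.9, 12.6 and 15.7 CPM at CT16, without overlap. The log2 fold change was 0.46 ± 0.11 (adjusted p = 0.0457 by edgeR). In control it was at 13.0, 12.5 and 13.6 CPM at CT4 and 12.3, 14.1, 13.8, 11.3 and 15.8 CPM at CT16 (0.05 ± 0.11, adjusted p = 0.826). The DKO libraries at CT4 were the lowest 3 of the 15.

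Creb1 and Gucy1a2 came close to a call in DKO. Creb1 was at 54.9, 49.2 and 53.0 CPM at CT4 and 65.8, 62.8, 58.3 and 67.1 CPM at CT16 (0.28 ± 0.07, adjusted p = 0.0511 by edgeR), and Gucy1a2 at 62.7, 59.4 and 60.5 CPM and then 88.5, 78.4, 69.7 and 70.6 CPM (0.34 ± 0.08, adjusted p = 0.0528). Neither gene's times overlapped. In control the same differences were 0.02 for Creb1 and -0.16 for Gucy1a2.

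**Figure D4:**
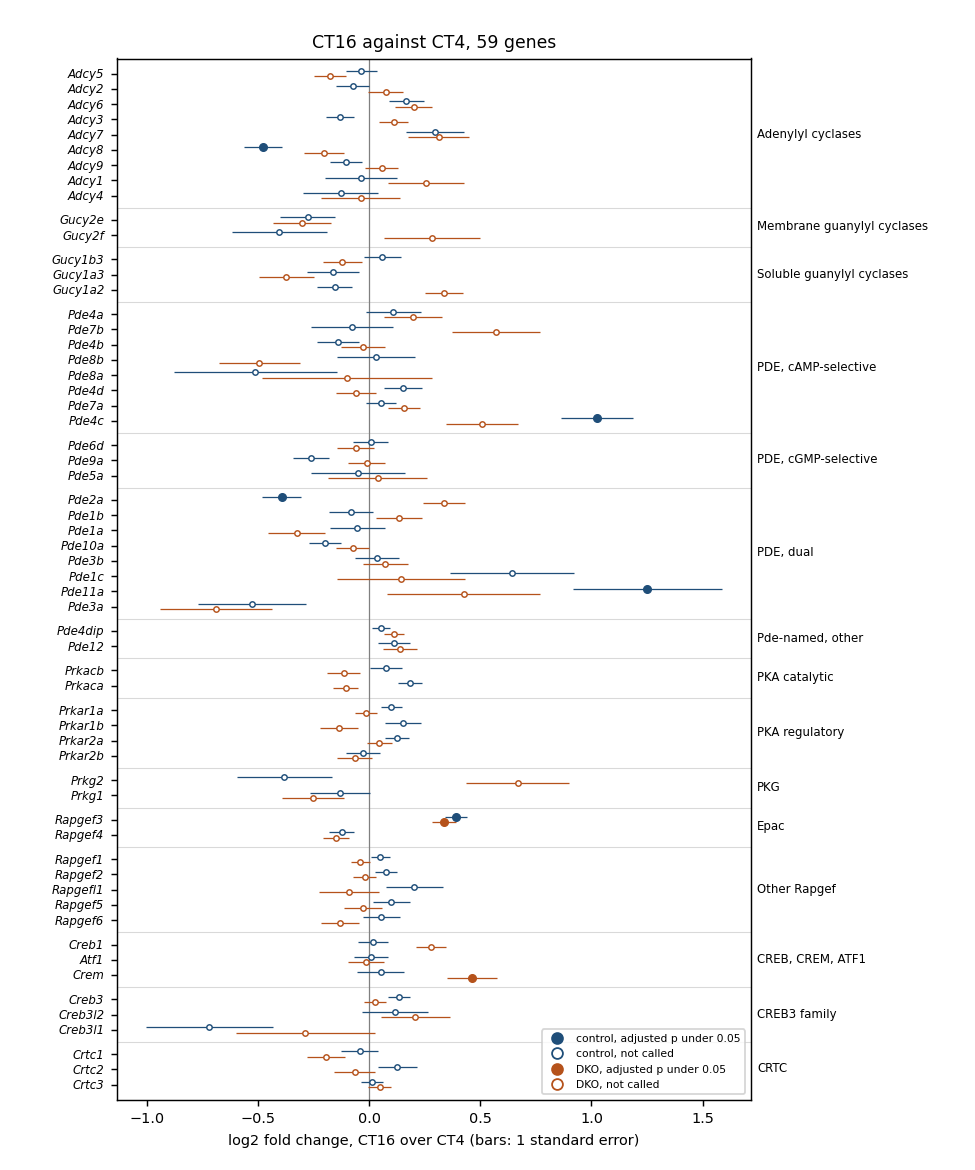
Log2 fold change of CT16 over CT4 for the 59 genes in control (blue) and DKO (dark orange), with bars of 1 standard error; filled points have an adjusted p under 0.05. Rapgef3 is filled in both genotypes, at 0.39 and 0.34, and Pde2a lies on opposite sides of 0, at -0.39 and 0.34.

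The count in DKO depended on single libraries. Without DKO CT16 replicate 3, 14 members and 1461 of all tested genes were called between times, against 2 and 304 with all libraries. The count of members fell to 1 without control CT4 replicate 2 or 3, any DKO CT4 library, control CT16 replicate 1 or 3, or DKO CT16 replicate 1 or 2. Without the 3 libraries that stood apart, 1184 of all tested genes were called. The members called there were 8: Creb1, Crem, Gucy1a2, Pde1a, Pde2a, Pde3a, Pde8b and Rapgef3. The call of Crem was lost without any 1 of the 6 CT4 libraries, control CT16 replicate 1 or 3, or DKO CT16 replicate 1, 2 or 4 (adjusted p of 0.0527 to 0.176 by edgeR) and when only the DKO libraries were fitted (0.138). In the last of these fits Rapgef3 was not called either (adjusted p = 0.0664).

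Whether the genotype difference itself changed with time was tested by the interaction. No member was called, against 2 of all tested genes (0.0118%, with 0.0118% higher and 0% lower) by edgeR's quasi-likelihood test. At an unadjusted p under 0.05 there were 13 members (22%, against 15.1% of all tested genes). DESeq2 called 360 of all tested genes and 4 members: Gucy1a2, Pde2a, Prkaca and Prkg2. The median interaction was -0.02 for the members and 0.02 for all tested genes.

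Pde2a had the smallest p of the members, with an interaction of 0.73 ± 0.13 (adjusted p = 0.0517 by edgeR). It was lower at CT16 than at CT4 in control, and in DKO its level at CT16 was 0.34 ± 0.09 above that at CT4 (adjusted p = 0.0799). Without DKO CT16 replicate 3 the interaction was 0.82 (adjusted p = 0.00329), and without the 3 libraries that stood apart 0.85 (adjusted p = 0.00276). Each of these exclusions gave 3 called members, Pde2a and Gucy1a2 in both, with Prkg2 in the former and Adcy3 in the latter. Of all tested genes, 298 were called in the former and 423 in the latter.

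Gucy1a2 had an interaction of 0.49 ± 0.12 (adjusted p = 0.108 by edgeR). Its DKO level was 0.23 below control at CT4 and 0.26 above it at CT16 on the log2 scale. Prkaca, with -0.29 ± 0.08 (adjusted p = 0.143), had the opposite pattern, with 0.04 at CT4 and -0.25 at CT16. Prkg2 was at 1.05 ± 0.31 (adjusted p = 0.168). Its CT16 levels were 21.0, 24.5, 17.0, 16.8 and 13.0 CPM in control and 22.4, 26.6, 15.5 and 27.4 CPM in DKO, which overlapped. For 50 of 59 members the 95% interval of the interaction lay within 1 of 0, and for 35 within 0.5.

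Genes upstream of the cyclases were examined as lists. Of 7 G protein alpha subunits that act on adenylyl cyclase, Gnas, the stimulatory subunit, fell in DKO at CT16 and was the only one called. Its level there was 2454, 2172, 2414, 2573 and 2543 CPM in control and 2231, 1931, 1924 and 1949.6 CPM in DKO (log2 fold change -0.28 ± 0.06, adjusted p = 0.00895 by edgeR). In control it was higher at CT16 than at CT4 (0.24 ± 0.06, adjusted p = 0.0367), where it was at 2094, 2037 and 2037 CPM. The median of the 7 at CT16 was -0.06, against 0.00 for all tested genes, of which 4.66% were called between genotypes there. The genotype call was lost when only the CT16 libraries were fitted (adjusted p = 0.0682) and without the 3 libraries that stood apart (-0.22, adjusted p = 0.112). Leaving out control CT16 replicate 2 gave 4 called subunits at CT16, and leaving out DKO CT16 replicate 1 or 3 gave 3. Without DKO CT16 replicate 1, all tested genes called rose from 788 to 1318. The call between times was lost without any 1 of the 6 CT4 libraries, without control CT16 replicate 1, 3, 4 or 5, and without the 3 libraries, with adjusted p of 0.0502 to 0.129.

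Of 19 tested receptors and ligands that control cAMP in the SCN, among them Vip, Vipr2, Adcyap1 and Mtnr1a, 1 was called in any comparison, or 5.26% at CT16 against 4.66% of all tested genes. This was the calcitonin receptor gene Calcr, lower in DKO at CT16 (-0.80 ± 0.21, adjusted p = 0.0487 by edgeR), at 56.4, 48.9, 56.9, 69.0 and 76.1 CPM in control and 56.5, 26.8, 28.9 and 28.9 CPM in DKO. DKO CT16 replicate 1 lay within the control range and the other 3 below it. Its call was lost in 17 of 22 alternatives, among them each of the CT4 libraries left out, and without the 3 libraries that stood apart it was at -0.56 (adjusted p = 0.407). The list's median was -0.14 at CT4 and -0.19 at CT16. At CT4, Vipr2 and Drd1 were called lower in DKO without the 3 libraries. The control CT4 library left out there, replicate 1, had the lowest control levels of both (46.8 and 11.3 CPM).

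On the cGMP side, 2 of 9 tested genes of nitric oxide and natriuretic peptide input were called, each in 1 comparison, or 11.1% there against 4.66% of all tested genes at CT16 and 4.21% between times in control. Npr1, which encodes a membrane guanylyl cyclase that is the receptor for atrial natriuretic peptide, rose in DKO at CT16 (1.46 ± 0.27, adjusted p = 0.00759 by edgeR). It was at 5.93, 8.14, 3.82, 4.43 and 6.08 CPM in control and 16.5, 15.1, 9.70 and 21.3 CPM in DKO, without overlap. Npr3, the clearance receptor of these peptides, was higher at CT16 than at CT4 in control (0.78 ± 0.21, adjusted p = 0.0461), a call lost without any 1 of the 6 CT4 libraries, control CT16 replicate 1, 3, 4 or 5, or DKO CT16 replicate 2 (adjusted p of 0.0583 to 0.196). The call of Npr1 was kept in each exclusion. Nos1, the neuronal nitric oxide synthase gene, was in the list and had no call.

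Among 12 tested channels and other effectors that bind cyclic nucleotides, Hcn3 was lower in DKO at CT16 (-0.30 ± 0.07, adjusted p = 0.0147 by edgeR) and nothing else was called. The call was lost without DKO CT16 replicate 2 (adjusted p = 0.0574), in a fit of the CT16 libraries alone (0.0625) and without the 3 libraries that stood apart (0.161). The list's median at CT16 was -0.12, and 4.66% of all tested genes were called there. None of 3 PKA inhibitors, 12 tested A-kinase anchors, 2 exporters of cyclic nucleotides and 5 CREB coactivators and SIK kinases was called in any of the 5 comparisons. In 3 of these lists calls appeared without the 3 libraries: Akap12 higher, and Abcc5 and Sik1 lower, in DKO at CT4, among others. The control CT4 library left out, replicate 1, lay within the DKO range for Akap12 (148 CPM) and Sik1 (43.1 CPM), and above it for Abcc5 (244 CPM).

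Of 20 genes known to respond to CREB, 5 were higher at CT16 than at CT4 in control (Fosb, Gem, Bdnf and Egr1 with the smallest p) and 3 in DKO (Fosb, Nr4a3 and Per1), with none lower. These are 25% and 15% of the list, against 2.13% and 1.29% of all tested genes called higher. The list's median was 0.29 in control and 0.27 in DKO, against -0.01 and 0.01 for all tested genes. Fosb, an immediate early gene, was at 2.37, 2.30 and 2.52 CPM in control at CT4 and 36.1, 14.3, 23.4, 23.5 and 26.7 CPM at CT16 (3.37 ± 0.38, adjusted p = 0.000571 by edgeR). In DKO it was at 5.69, 3.21 and 1.97 CPM and then 20.8, 12.8, 11.2 and 15.1 CPM (2.04 ± 0.37, adjusted p = 0.0138). Per1, a clock gene with cAMP response elements in its promoter, was higher at CT16 in DKO (0.72 ± 0.12, adjusted p = 0.00665), while in control it was at 0.31 ± 0.11 (adjusted p = 0.142). The remaining gene called in control, Crh, is also in the list of markers of neighbouring nuclei, and Gem is also in that of SCN neurons.

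The counts of the CREB-responsive list depended on single libraries. In control the count was 1 without control CT4 replicate 1 or 2 and 4 to 6 without any other library. It was 4 without the 3 libraries that stood apart, of which 2 (Fosb and Gem) were higher and 2 (Dusp4 and Sik1) lower. In DKO it was 1 without DKO CT4 replicate 2 or 3, 7 without DKO CT16 replicate 3, and 2 to 4 without any other library; without the 3 libraries it was 6, of which 5 were higher. Fosb in control was called in all 22 alternatives. In DKO its call was lost without DKO CT4 replicate 2 (adjusted p = 0.0978 by edgeR) or 3 (0.0638), and that of Nr4a3 without any DKO CT4 library or DKO CT16 replicate 1 (0.0516 to 0.0747).

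Between genotypes, 1 of these 20 genes was called, or 5% at CT4 against 1.28% of all tested genes. Nr4a3, which encodes an orphan nuclear receptor, was lower in DKO at CT4 (-1.45 ± 0.29, adjusted p = 0.0383 by edgeR), at 16.9, 26.1 and 29.1 CPM in control and 6.35, 9.98 and 10.0 CPM in DKO. That call was lost without control CT4 replicate 2 or 3, any DKO CT4 library, or control CT16 replicate 3 or 4, with adjusted p of 0.0521 to 0.156. Without the 3 libraries that stood apart, or without control CT4 replicate 1 alone, 4 genes of the list were called, and 4 of 4 were lower without the 3 libraries. That exclusion called 606 of all tested genes at CT4, against 217. At CT16 Nr4a3 was at -0.25 ± 0.23 (adjusted p = 0.578). The interaction was called for none of the 20, with Nr4a3 at 1.21 ± 0.37 (adjusted p = 0.176). Without the 3 libraries it was called for 3 (Dusp4, Pcsk1 and Sik1), and for 423 of all tested genes.

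RefSeq promoter windows (GRCm38.p6) were matched for 49 of the 59 members, 91 windows in all. The RORE matched in 1 member window, that of Gucy2f, or 1.1% of theirs against 1.53% of all 32851. Its core AGGTCA was in 12.1% of member windows and 16.3% of all, and the longer TAGGTCA in 1.1% and 2.61%. The palindromic cAMP response element TGACGTCA, which contains the core TGACG, was in 2.2% of member windows and 1.79% of all; the member with it was Prkar1a. The D-box TTATGTAA was in 0% of member windows and 0.938% of all. Pde9a, Adcy8, Prkg2, Crem, Creb3l1, Adcy6, Crtc2, Pde7a, Pde3a and Pde3b had no entry.

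The levels of 3 members, chosen after their values were seen, were set beside the summed markers of a tissue in each library. Pde8a, a cAMP-selective PDE, was highest in DKO CT16 replicate 4 at 46.5 CPM, the library with the highest myelin sum (20073 CPM), and lowest in control CT16 replicates 5 and 4 at 12.1 and 12.2 CPM, which had the lowest myelin sums (2967 and 3251 CPM). Its log2 fold change at CT16 was 0.55 with a 95% interval of -0.19 to 1.29. Prkg2 was highest in control CT4 replicate 2 (28.6 CPM) and DKO CT16 replicate 4 (27.4 CPM), where SCN markers summed to 1335 and 1500 CPM. Below that the sum gave no such order. With sums of 978 and 1010 CPM Prkg2 was at 22.4 and 21.0 CPM, with sums of 1057 and 1065 CPM at 13.4 CPM, and with the lowest sum (685 CPM) at 17.0 CPM. In this sum, Avp alone ran from 72.3 CPM (Prkg2 at 28.6 CPM) to 681 CPM (Prkg2 at 19.0 CPM). Beside Vipr2, another of its genes, an order was seen. Prkg2 was at 13.0 to 16.5 CPM with Vipr2 at 22.1 to 34.2 CPM, and at 24.5 to 28.6 CPM with Vipr2 at 83.3 to 136 CPM. Pde1a, a PDE stimulated by calcium and calmodulin, did not follow the sum for neighbouring nuclei. It was highest in DKO CT4 replicate 1 at 77.4 CPM (sum 1155 CPM) and lowest in DKO CT16 replicate 4 at 44.0 CPM (564 CPM), but at the highest sums, 1271 and 1269 CPM in control CT16 replicates 5 and 4, it was at 52.0 and 64.3 CPM. The part of tissue composition in the values of these genes was not tested.

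**Figure D5:**
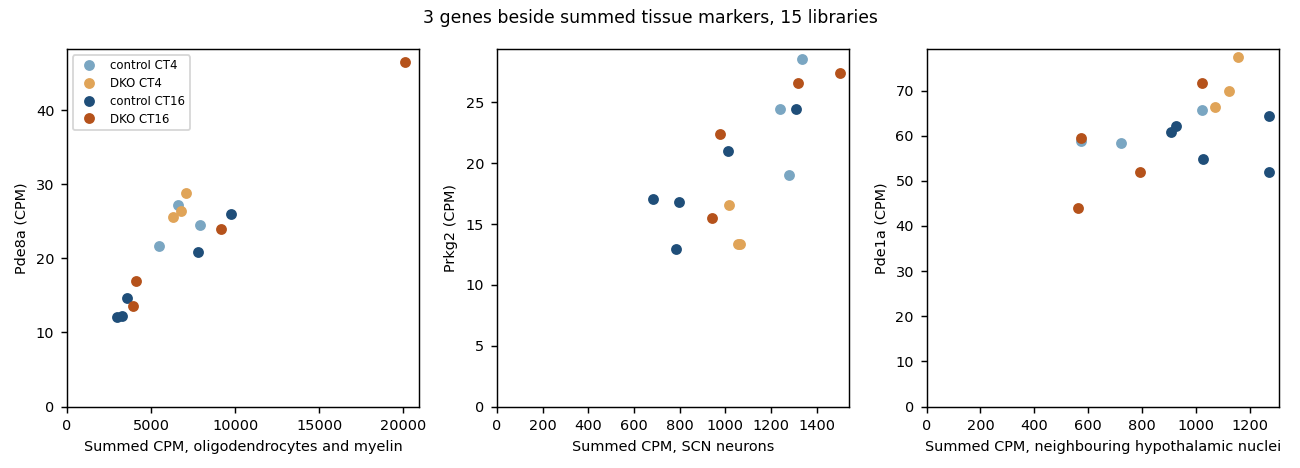
Level in CPM of Pde8a, Prkg2 and Pde1a against the summed CPM of myelin, SCN neuron and neighbouring nuclei markers, respectively, with 1 point for each of the 15 libraries coloured by group. The point at the upper right of the first panel is DKO CT16 replicate 4, with Pde8a at 46.5 CPM and a myelin sum of 20073 CPM.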

How the data were processed

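RNA of SCN punches was sequenced in 15 libraries. The authors deposited whole-number read counts per gene and library, not normalized, with exonic lengths, per the file headers. Tools listed, per the submitters' processing notes, were STAR, featureCounts and DESeq2, with the build mm10. No version, annotation or strand setting was found in the labels.

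Counts were analysed with edgeR 4.0.16 in R 4.3.3. After filterByExpr on the 4 groups 16910 genes remained. With TMM factors, a single robust quasi-likelihood fit of 4 group means left 11 residual degrees of freedom and gave 5 contrasts. A call needed an adjusted p (Benjamini-Hochberg, all tested genes) under 0.05. SE was taken as |log2 fold change| over the square root of F. CPM used TMM-scaled library sizes except in the member rule, which used column totals, and log2 CPM a prior count of 2. Chi-square per degree of freedom between libraries of a group was 6.62 to 127, so each counted as 1 replicate.

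Named were all called members, the smallest p-values up to 4 per comparison, the highest and lowest of each role and the core of the pathway, with a few added after their values were seen. From other lists up to 4 called genes were named. The members and lists were chosen with earlier results of these data known. Alternatives were RLE factors, DESeq2 1.42.0, no filter, a mean CPM of at least 1, a fit on the compared groups, the replicate number as a block and each library left out, and, added later, 3 libraries left out together. The steps were tested on simulated data. Of 67 genes with a log2 change of 0.5, 38 were recovered at CT4 and 51 at CT16. Between times, 51 of 67 were recovered in control and 44 of 67 in DKO. False calls made up 3.43% to 8.67% of the calls, the highest share being that between times in control. Marker lists of other cell types were summed as CPM; photoreceptor markers are not reported here.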

Additional observations from a re-analysis of the deposited data

Results flagged for a closer look

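For 34 named genes, groups of 4 or 5 libraries were searched for a single library far from the rest (Dixon's test at the 95% level). Of 68 groups 3 held one, and chance gives about 1 in 20. Pde11a was at 6.26 CPM in DKO CT16 replicate 1 and at 2.77 to 2.96 CPM in the other 3. Pde10a, a PDE that accepts both nucleotides, was at 65.2 CPM in DKO CT16 replicate 4 and at 81.6 to 84.0 CPM in the other 3; this library also had the highest myelin sum. Adcy5 was at 223 CPM in control CT16 replicate 2 and at 239.5 to 244 CPM in the other 4.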

How the results depend on the processing

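Of the values for other named members, 149 pairs of a gene and a comparison were recomputed under the alternatives, 3248 values in all. Of these, 3214 stayed on the same side of the threshold and 34 passed it. None called in either fit reversed. Changes of direction among uncalled values were not counted. Among called members and called genes of the pathway lists, none reversed; the alternatives for the latter were run after their values were seen. DESeq2 called 4 members at CT4, 7 between times in DKO and 4 for the interaction, against 2, 2 and 0. A fit on the compared groups alone called 4 at CT4 and 0 between times in DKO, and a minimum mean CPM of 1 called 4 there. Without the 3 libraries that stood apart, an exclusion chosen after seeing the data, these counts were 5, 8 and 3. Leaving out each library in turn gave 0 to 2 members at CT4, 4 to 7 at CT16, 3 to 7 between times in control, 1 to 14 in DKO and 0 to 3 for the interaction. RLE factors moved the median of all genes by -0.01 to 0.00 on the log2 scale.

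Replicate numbers shared between groups were not used as pairs in the main fit. Deviations of same-numbered libraries correlated at -0.18 to 0.14. Between times in DKO, but in no other comparison, each correlated best with its own number, a hint from the data and not the design. These values do not settle whether libraries were paired. With the replicate block 1 member was called at CT4 (Gucy2f) and 1 between times in DKO (Rapgef3); in control, Pde11a was not called (adjusted p = 0.0763 by edgeR). Of the pathway lists, Npr1 (0.0758), Npr3 (0.0952), Calcr (0.12), Gnas between times (0.13), Nr4a3 at CT4 (0.109) and between times (0.0998) and Per1 (0.0592) were not called with the block, values being its adjusted p.

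All tested genes called at CT4 numbered 584 by DESeq2, 828 with the compared groups alone, 104 with the block and 606 without the 3 libraries, against 217, and 16 to 328 with single libraries left out. At CT16 these were 1267, 368, 503 and 419 against 788 (380 to 1318), between times in DKO 874, 47, 159 and 1184 against 304 (103 to 1461), and between times in control 1282 by DESeq2, 379 with the block and 609 without the 3 libraries against 712 (235 to 1057). For the interaction 360 were called by DESeq2, 6 with no filter, 1 with the block and 423 without the 3 libraries, against 2 (1 to 298). Depth limits the lowest members most: Pde4c had as few as 50 counts in a library.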
